A study of Bos taurus with 12 samples.

Results

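Tiles of 500 bp that the authors' deposited table places in the promoter class of a gene were taken from a comparison of sperm DNA methylation between bulls (Bos taurus) labelled low BFI (6 samples) and high BFI (6 samples). The labels leave BFI unexplained and give no age, breed or treatment for either group. Methylation was read by EM-seq, in which enzymes rather than bisulfite convert unmethylated cytosines. Members were all autosomal tiles of the promoter class whose closest feature was a gene feature and not a CpG island, outside 5 intervals on chromosomes 1, 6, 14, 18 and 21. Of 7290 listed tiles, 743 were of the promoter class, 89 of these lay on chromosome X and 232 in the left-out intervals, which left 422 members on 25 chromosomes. They belonged to 187 genes, of which 172 had a gene ID and 15 were transcripts without one. For 151 genes the table gave a description.

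A promoter is the stretch of DNA around the start of a gene from which transcription begins. Promoters rich in CpG sites, often inside CpG islands, are mostly unmethylated in sperm, whereas most other CpG sites in sperm DNA are methylated. Sperm DNA is packed largely by protamines and is hardly transcribed, and its methylation pattern was laid down while the germ cells developed.

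Each difference below is the deposited methylation difference between the groups in percentage points (called points here). Neither headers nor labels say which group was subtracted, so signs are printed as they stand in the table and cannot be assigned to a group. The table holds no value per bull. Levels, coverage and the spread between bulls were not analysed here, the depth is unknown, and the sources used here do not say whether the q-values allow for bull-to-bull variation. A tile is called when its deposited q is under 0.05. Positions are on ARS-UCD1.2, the build in the submitters' processing notes. The tiles start on a grid of 100 bp, so that 231 members shared bases with the member before them, and the members formed 185 loci when tiles within 1000 bp were joined.

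Differences at promoter-class tiles were mostly small and more often negative than positive. The median was -0.30 points, and 267 of 422 differences (63.3%) were negative. Of all listed tiles 71.6% were negative, and of the 2018 other autosomal tiles with a gene feature outside the same intervals 62.2%, so the lean was not particular to the promoter class. In absolute size the median was 0.766 points, against 1.48 points over all listed tiles, and 246 members (58.3%) differed by less than 1 point, against 41.1% of all listed tiles. Of the members, 283 (67.1%) were called, against 71.8% of all listed tiles. Negative calls numbered 181 (42.9% of members), below the 55.9% of all listed tiles. Positive calls numbered 102 (24.2%), above the 15.9% of all listed tiles. A call together with a difference of at least 10 points was found at 5 of 422 members, all at 1 gene, GLIS3. It was found at 203 of 7290 listed tiles (2.78%), and at 26 of the 2018 other autosomal tiles with a gene feature outside the same intervals. At least 5 points with a call was found at 33 members (7.82%), against 15.4% of all listed tiles.

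By gene, 77 of 187 had negative calls only, 50 had positive calls only, 2 had both and 58 had none. Among the 172 gene IDs, 116 (67.4%) had a called member tile, whereas 73.3% of all gene IDs in the table had a called tile of any class. The 151 described genes divided into 58 negative, 40 positive and 53 without a call. At 113 of these described genes the largest difference was below 1 point.

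Among the classes of position, autosomal tiles with a gene feature outside the same intervals ran from small differences inside genes to larger ones far from them. The median absolute difference was 0.629 points for 855 tiles within genes, 0.766 points for the 422 promoter-class tiles, 1.201 points for 430 downstream tiles and 1.86 points for 733 distal intergenic tiles. Negative differences made up 53.8% of tiles within genes, 63.3% in the promoter class, 65.8% downstream and 70.0% in distal intergenic tiles. Over tiles, the promoter class thus lay between gene bodies and downstream tiles on both measures. By the median of each gene, absolute differences were 0.517 points within genes and 0.507 points in the promoter class, which was then lowest. They were 0.609 points downstream and 2.29 points in distal intergenic tiles. The classes were not tested against each other because overlapping tiles are not replicates.

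Members lay from 1 to 9961 bp from their gene feature by the deposited distance, with a median of 401 bp. Within 1000 bp lay 262 tiles of 158 genes, with a median absolute difference of 0.541 points. Above 1000 and up to 2000 bp lay 34 tiles of 14 genes, with a median of 0.966 points. Above 2000 and up to 5000 bp there were 78 tiles of 14 genes, with a median of 3.39 points. Beyond 5000 bp there were 48 tiles of 12 genes, with a median of 1.48 points. The tiles closest to genes thus had the smallest differences, and 73.7% of them differed by less than 1 point. The shares called were 64.5%, 50.0%, 83.3% and 66.7% from the nearest class to the farthest. Of the 33 called tiles with at least 5 points, 30 lay beyond 2000 bp and 3 within 1000 bp.

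The high value between 2000 and 5000 bp rested on few genes with many tiles. Counted by the median of each gene, the 4 distance classes had absolute differences of 0.461, 0.667, 0.943 and 2.14 points from near to far. With 1 tile per locus the value for 2000 to 5000 bp was 0.507 points, with tiles thinned so that none overlapped it was 1.78 points, and without the first 500 kb of each chromosome it was 1.76 points. The farthest class was then the highest under each of these settings. With 1 tile per locus, and without multicopy families and unnamed IDs, the lowest median was that of 1000 to 2000 bp and not that of the nearest tiles.

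**Figure D1:**
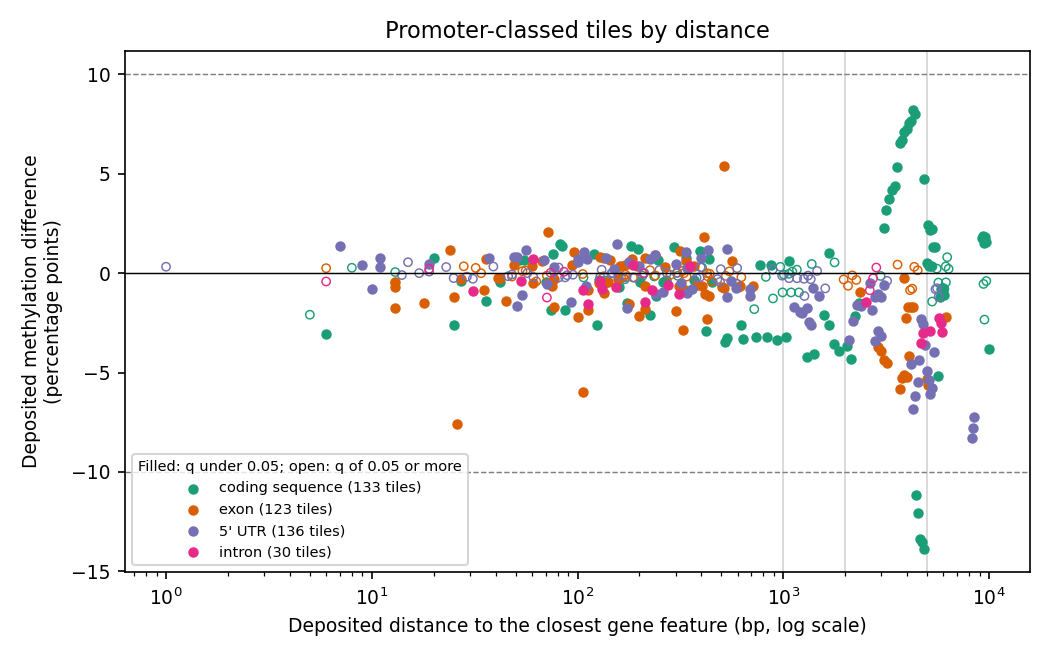
Deposited methylation difference in percentage points (vertical axis) of the 422 promoter-class tiles against deposited distance to the gene feature (log axis, bp), coloured by feature type, with filled points for q under 0.05. Most of the 262 tiles within 1000 bp lie near 0, and the 5 tiles beyond the lower dashed line at 10 points belong to GLIS3.

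**Figure D2:**
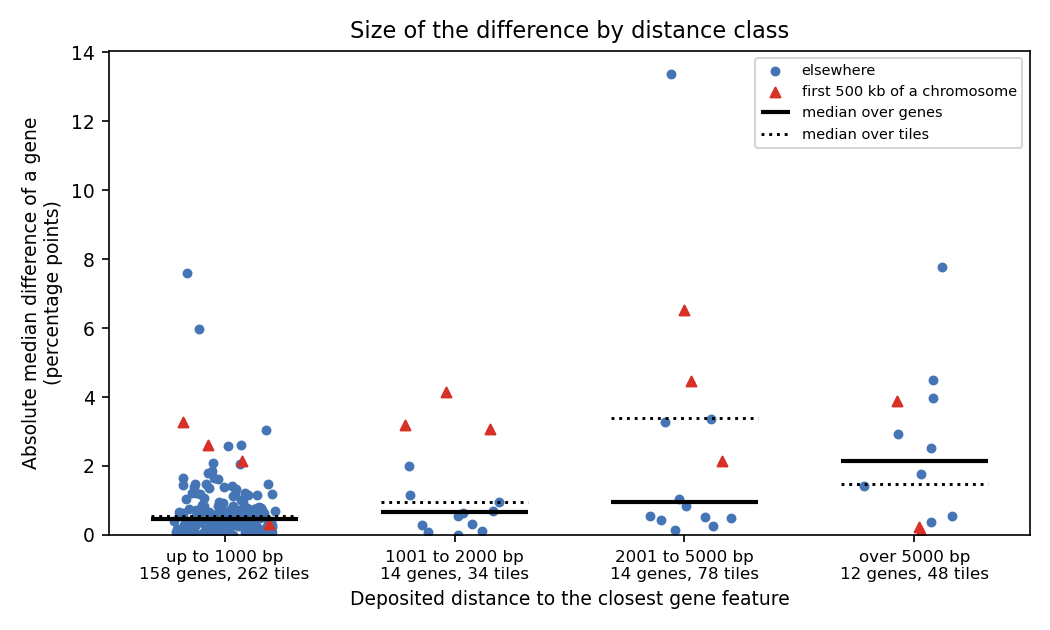
Absolute value of each gene's median difference in percentage points by class of distance, with red triangles for genes in the first 500 kb of a chromosome, a solid line for the median over genes and a dotted line for the median over tiles. The solid line goes from 0.461 to 2.14 points, while the dotted line is highest, at 3.39 points, for 2000 to 5000 bp.

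By type of the closest feature, 133 tiles of 43 genes lay at coding sequence, 136 tiles of 65 genes at 5′ untranslated regions, 123 tiles of 63 genes at exons and 30 tiles of 16 genes at introns. The share called was 72.2% at coding sequence, 70.0% at introns, 68.3% at exons and 60.3% at 5′ untranslated regions. The median absolute difference was 1.30 points at coding sequence, 0.818 points at introns, 0.728 points at 5′ untranslated regions and 0.639 points at exons. By the median of each gene it was 0.746, 0.575, 0.436 and 0.454 points in the same order, so that the value at coding sequence was smaller and that at exons slightly above that at 5′ untranslated regions. Within 1000 bp the tile medians were 0.778, 0.636, 0.375 and 0.565 points. The coding sequence tiles include 27 of ENSBTAG00000023249, and their median distance was 1192 bp, against 237 bp for exons. Of the exon tiles, 113 of 123 had the first exon of the transcript as closest feature.

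The type of feature went with the strand of the gene. Of the exon tiles 109 were at genes on the plus strand, and of the 5′ untranslated tiles 111 were at genes on the minus strand. All 30 intron tiles were at plus-strand genes. The deposited distance ran from the start of the tile to the feature edge in 422 of 422 tiles, so that on the plus strand it is 499 bp longer than the gap from the end of the tile. All 136 members that overlapped their own feature were at plus-strand genes. Distances given below for single tiles are the deposited ones. Within 1000 bp, 26 of 66 tiles at 5′ untranslated regions of minus-strand genes were negative, against 13 of 21 on the plus strand. For exons within 1000 bp, 11 of 14 were negative on the minus strand and 48 of 82 on the plus strand. Feature type and strand therefore cannot be told apart in most of these tiles.

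Near the gene, the sign of the difference was split by CpG islands. The islands used are the 495 that the table names as closest feature of any tile, so that a tile in an island the table does not name counts as outside. Within 1000 bp, 79 tiles of 49 genes overlapped such an island, and 33 of them (41.8%) were negative. The other 183 tiles of 110 genes held 118 negative differences (64.5%). Calls within islands were 24 negative and 35 positive, and outside islands 73 negative and 37 positive. With both strands together the sets had nearly the same size of difference, with medians of 0.543 and 0.541 points. On the plus strand the medians were 0.664 points in islands and 0.451 outside, and on the minus strand 0.417 and 0.701. The split by island was chosen after the values were seen.

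The split by island had the same direction in each subset examined. On the plus strand 43.8% of tiles in islands were negative against 67.9% outside, and on the minus strand 38.7% against 59.2%. Taking the first tile of each gene gave 39.6% of 48 tiles against 61.8% of 110. In described genes outside multicopy families it was 33.3% of 51 tiles against 63.9% of 144. By type, exons within islands did not stand far from exons outside, with 59.4% against 62.5% negative. At 5′ untranslated regions, 3 of 22 tiles in islands were negative, against 36 of 65 outside.

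**Figure D3:**
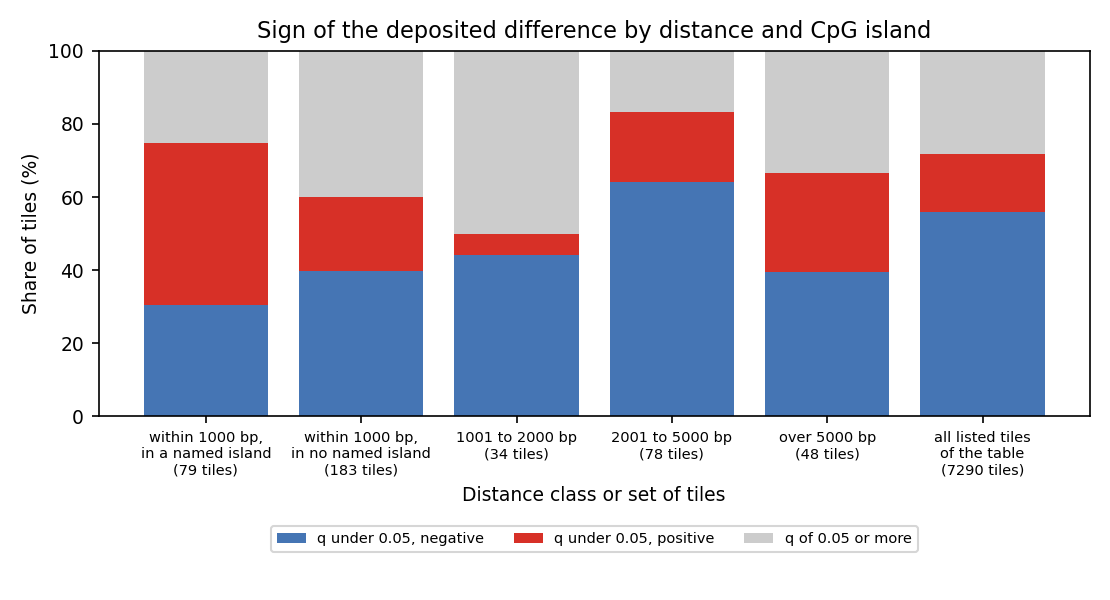
Shares of tiles (percent) with a negative call, a positive call or no call at a q of 0.05, for tiles within 1000 bp in and outside a named CpG island, for the other classes of distance and for all listed tiles. Tiles in islands are the set with more positive calls (35 of 79) than negative calls (24 of 79).

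The largest differences were at GLIS3, a zinc finger transcription factor with roles in the pancreas and thyroid. By the authors' deposited table, its 5 tiles, on chromosome 8 from 40569401 to 40570300 had differences of -13.9, -13.5, -13.4, -12.1 and -11.1 points in order of position. These 5 tiles overlap and lie 4415 to 4815 bp from the coding sequence. All were negative, and the q of the tile with -13.9 points was 8.63e-31 in the authors' deposited table. Without this locus no member reached 10 points, so that the count at that threshold rests on 1 locus.

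PTGR1, an enzyme that reduces prostaglandins and inactivates leukotriene B4, held the next largest negative differences among described genes. Its 3 tiles on chromosome 8 from 101002401 to 101003100, 8290 to 8490 bp from the 5′ untranslated region, had -8.30, -7.78 and -7.23 points in the authors' deposited table. The smallest q among these 3 tiles was 1.96e-20, and all 3 differences were negative. LOC617374, described as proteoglycan 3, a granule protein of eosinophils, had 24 tiles on chromosome 15 from 80586801 to 80590900. They ran from -6.82 to -0.759 points in the authors' deposited table, all negative, and 21 were called. A second gene of the same description, LOC783660, had 4 tiles from 80622101 to 80622900 with -2.60 to -0.252 points, of which 1 was called. Reads can be shared between such similar copies, so that both are uncertain.

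Differences of both signs lay side by side at the start of chromosome 25. ENSBTAG00000023249, a gene without a description, had 27 tiles from 26301 to 30000, of which 23 were called. In the authors' deposited table the difference reached 8.21 points at 27601 to 28100 and fell to -1.22 points farther from the gene. The smallest q of all members, 1.02e-138, belonged to the tile from 27301 to 27800, with 7.27 points. The 10 downstream tiles of the same gene had a median of -6.51 points, from -7.78 to -4.26. Next to it, ENSBTAT00000078325, a transcript without a gene ID, had 14 tiles from 32201 to 36000, all called and all negative, from -5.83 to -1.68 points.

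These genes belong to a group of 73 tiles of 10 genes in the first 500 kb of a chromosome, none of them described. There 86.3% of tiles were called and the median absolute difference was 3.16 points, against 63.0% and 0.657 points for the 349 members elsewhere. Of the 33 called tiles with at least 5 points, 15 lay in these chromosome starts, all on chromosome 25. They were 9 tiles of ENSBTAG00000023249 and 6 of its neighbour ENSBTAT00000078325. Not every chromosome start had large differences, since none of the 5 tiles of ENSBTAG00000053760 on chromosome 22 was called. On chromosome 7, ENSBTAG00000050327 had 6 tiles from 119901 to 120900 between -3.35 and -3.19 points in the authors' deposited table, with a smallest q of 5.61e-133. ENSBTAG00000052137, ENSBTAG00000052807 and ENSBTAG00000053122, between 85501 and 104200 on the same chromosome, had negative differences in all of their 9 tiles, from -4.21 to -2.10 points. On chromosome 21, ENSBTAG00000051425 had 4.73 points in its tile 4845 bp away and -4.33 points in a tile 2145 bp away. IDs without a name are given as uncertain.

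**Figure D4:**
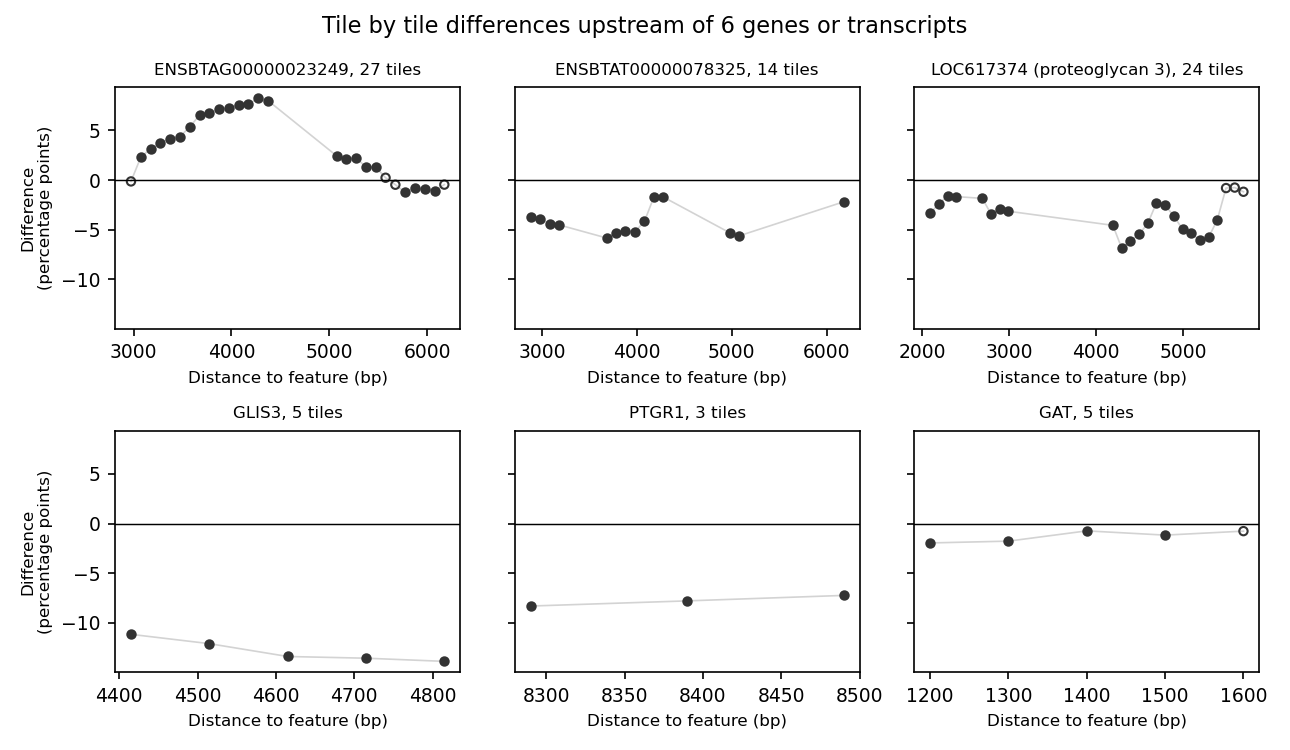
Deposited difference in percentage points along the promoter-class tiles of 6 genes, plotted against distance from the gene feature in bp, with filled points for q under 0.05. ENSBTAG00000023249 goes from near 0 to 8.21 points and back below 0, while all tiles of LOC617374, GLIS3 and PTGR1 are negative.

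Differences of 5 points or more within 1000 bp of a gene were found at 3 tiles, each at an ID without a description. ENSBTAT00000076496 on chromosome 7 had -7.61 points 26 bp from its exon (q of 2.71e-08). ENSBTAT00000007745 on chromosome 11 had -5.96 points at a deposited distance of 106 bp, in a tile that overlapped its exon. ENSBTAG00000053933 on chromosome 7 had 5.37 points at a deposited distance of 514 bp in the authors' deposited table. The values of ENSBTAG00000053933 shrank tile by tile toward the gene, to 1.82, 1.11 and 0.788 points. Described genes had smaller differences than these within that range.

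Negative calls among described genes outside these loci were smaller. ADAD1, a testis RNA-binding protein needed for sperm formation, had -1.73 points (q of 1.61e-11) and -1.12 points on chromosome 17 in the authors' deposited table. Their deposited distances of 174 and 54 bp run to the edges of different annotated 5′ untranslated regions. The tile with -1.73 points contained the edge used for the other tile, which lay farther upstream. EXOSC10, the nuclear exosome subunit that degrades RNA, had -1.57 and -1.70 points on chromosome 16, at deposited distances of 177 and 77 bp. Both tiles overlapped its exon, and the larger difference had a q of 1.04e-10 in the authors' deposited table. QTRT1, the subunit of the enzyme that puts queuine into transfer RNA, reached -2.24 points 3935 bp away on chromosome 7, and the values shrank with distance to 0.322 points, without a call, in the farthest tile of the authors' deposited table.

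Other negative calls covered several kinds of genes. HOXA2, a homeobox factor of hindbrain patterning, had 4 called tiles on chromosome 4 with -0.639, -0.663, -0.759 and -1.04 points in the authors' deposited table. Their deposited distances ran from 716 to 416 bp, and the tile with -1.04 points overlapped the exon. ARF2, a small GTPase of vesicle traffic, had -0.781 and -0.767 points. DPY19L2, needed to attach the acrosome to the sperm nucleus, had -0.433 points with a q of 0.00236 in the authors' deposited table. NAA60, an acetyltransferase of the Golgi whose human gene is imprinted, had -0.591 points with a q of 8.48e-06. OR5A1, an olfactory receptor, had -1.87 points on chromosome 15 in a tile that overlapped its coding sequence, at a deposited distance of 87 bp. LOC404103, a spleen trypsin inhibitor, had 5 negative tiles on chromosome 13, of which 4 were called, with -1.21 points at the largest, in the authors' deposited table. GAT, a glycine N-acyltransferase, had -1.95 points at 1200 bp, and GPR37, an orphan receptor, and GNAL, a G protein subunit of olfactory signalling, had called tiles of -0.477 and -0.613 points in the authors' deposited table. The other tile of GNAL had -0.0839 points without a call. Benjamini-Hochberg values recomputed from the deposited p-values end the call of GNAL (0.244), those of 3 of the 4 called LOC404103 tiles, the largest included (0.0896), and those of 2 of the 4 HOXA2 tiles.

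Positive calls within 1000 bp were found at 39 described genes, with a median of 0.676 points for the largest call of each gene, and 8 of these genes reached 1 point. Those named here are among the largest. USP3, a deubiquitinase of histones, had 1.19 and 1.46 points 56 and 156 bp from the gene on chromosome 10, with a q of 4.05e-08 for the larger in the authors' deposited table. HSPA2, a testis heat shock protein needed in meiosis, had 0.624 and 0.900 points on the same chromosome, at deposited distances of 337 and 237 bp. Both tiles of HSPA2 overlapped its exon, with q of 0.000975 and 3.24e-08 in the authors' deposited table. ABCF3 had 1.37 and 1.05 points in its tiles 7 bp and farther away on chromosome 1, with a q of 1.38e-09 for the larger. PPP4R3B, a regulatory subunit of protein phosphatase 4, had 4 called tiles on chromosome 11 with 0.744 to 1.07 points. All tiles of these genes were positive.

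Further positive calls reached 2.05 points at ZNRD2, with a q of 0.0465 in the authors' deposited table, a call that the recomputed Benjamini-Hochberg value ends (0.0671). SOAT1, which esterifies cholesterol, had 1.19 and 1.201 points, CHMP2B, a part of the membrane-cutting ESCRT complex, had 1.06, LARP1, a regulator of translation, had 0.778 and 0.960, and JAG1, a Notch ligand, had 0.771. GRIK1, a kainate receptor subunit, had 0.676 points, and GPRC5C, an orphan receptor, had 0.541, 0.375 and 0.453 points, all positive and called, the tile of 0.375 points not by the recomputed value. CLDN8, a tight junction protein, had 1.14 points, RBM39, a splicing factor, had 0.829 points and ELOF1, a transcription elongation factor, had 0.811 points in the authors' deposited table. Among multicopy families, 9 genes with 22 tiles divided into 4 with negative calls, 4 with positive and 1 with none. ZNF814, a zinc finger gene of a large family, had 1.12 to 1.33 points over 3 tiles in the authors' deposited table, with a q of 2.83e-10 for the middle tile, and is uncertain because similar genes can share reads.

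**Figure D5:**
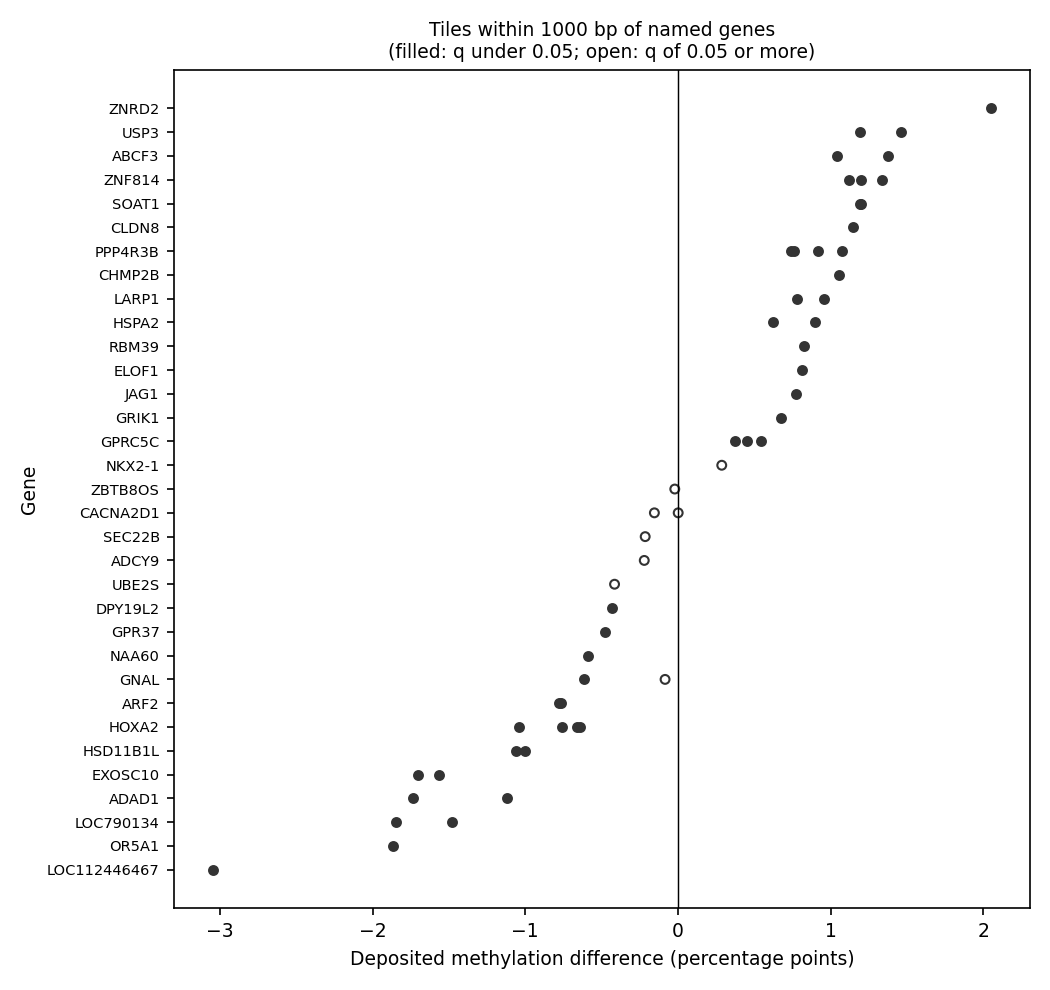
Deposited difference in percentage points (horizontal axis) of each member tile within 1000 bp of the named described genes, with filled points for q under 0.05. Genes with positive calls, such as USP3 and HSPA2, lie right of 0 and genes with negative calls, such as ADAD1 and EXOSC10, left of it, from -3.04 points at LOC112446467 to 2.05 points at ZNRD2.

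Of 14 gene lists, the 4 for chromatin and DNA methylation, cytoskeleton, leukocyte markers and epithelial markers held no member gene, so that these markers could not be checked here. The lists go by gene symbols and miss some genes of the same kind. On the list of developmental transcription factors, HOXA2 had negative calls, and LHX8 and NKX2-1 had no call, nor did the homeobox genes MIXL1 and HMBOX1, which the list misses. For G protein-coupled receptors and cyclic nucleotide signalling, 2 of 4 had negative calls (GNAL and GPR37), 1 a positive call (GPRC5C) and ADCY9 none, with a list median of -0.08 points. In ubiquitin and protein sorting, USP3 had positive and ARF2 negative calls, and UBE2S and SEC22B had none. The zinc finger list held GLIS3, with negative calls, ZNF814, with positive calls, and ZBTB8OS, the opposite-strand neighbour of a zinc finger gene, without one, and it misses LOC100296121, described as a zinc finger protein, with 3 positive calls in 4 tiles. The imprinted list held NAA60. The spermatogenesis list held DPY19L2, with a negative call, and misses ADAD1, with negative calls, and HSPA2, with positive calls. The list for lipid metabolism held HSD11B1L, with negative calls. Among others, it misses SOAT1, ECHDC1 and LOC511425, an acyl-CoA dehydrogenase, with positive calls, and LOC507201, a phospholipase, without one. It also misses PTGR1, ARV1, ALOXE3, ACAD11 and LOC786352, described as an apolipoprotein, all with negative calls. The genes that the lists miss were named after their values were seen. Synapse genes held GRIK1, with a positive call, and CACNA2D1 without one, while the signalling list held JAG1, with a positive call, and HEY2 without. Against these, 69.0% of all 187 genes had a call, and the lists are too short for a share to be compared.

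For 13 genes the table also listed tiles in the gene body that did not overlap the promoter tiles, and in 9 of them the medians had the same sign. The median absolute value over these genes was 0.838 points in promoter tiles and 1.50 points in the body. Compared gene by gene, the body had the larger absolute median in 7 of the 13. GAT was of opposite sign, with a median of -1.16 points over 5 promoter tiles and 6.73 points over 3 body tiles. LOC112446467, a USP17L6-type deubiquitinase of a multicopy family, had -3.04 points in its promoter tile and -3.45 points over 10 body tiles, and is uncertain for the reason above.

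Divergent gene pairs are transcribed away from each other and can share a promoter. In 5 such pairs, all chosen after their values were seen, 6 of 15 tiles (40%) were called, against 67.1% of the members and 71.8% of all listed tiles, and no difference exceeded 1.22 points in size. CBX3, a heterochromatin protein, had -1.22 points (q of 1.31e-07) and HNRNPA2B1, an RNA-binding protein, had -1.17 and -0.86 points in the authors' deposited table, at chromosome 4 from 69734601 to 69735300. MICOS13, a protein of the mitochondrial inner membrane, had -1.16 points and HSD11B1L, a short-chain dehydrogenase, had -1.06 and -1.005 points in the authors' deposited table, in tiles of chromosome 7 from 18616701 to 18617400. The pairs PRDX5 with TRMT112 and HMBOX1 with INTS9 held no called tile.

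Small differences could have very low q-values. The smallest called difference was 0.219 points in size, and 115 called members differed by less than 1 point. The tile at ENSBTAT00000077535 on chromosome 9 from 44301 to 44800 had a q of 1.99e-133 at -2.19 points, while the tile of GLIS3 with -13.9 points had a q of 8.63e-31 in the authors' deposited table. In 300 of 422 members (71.1%) the deposited q was smaller than the deposited p, and 31 members had a q under 0.05 with a p of at least 0.05. The relation of q to p differed between chromosomes. The PAQR9 tile on chromosome 1 had a deposited p of 0.127 and a q of 0.0437. A tile of ENSBTAG00000052267 on chromosome 10 had a deposited p of 0.0396 and a q of 0.0407. A single q threshold is therefore not a single p threshold. Recomputing q-values from the deposited p-values by the Benjamini-Hochberg method gave 240 called members (56.9%), against 62.5% of all listed tiles.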

How the data were processed

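Sperm DNA of 12 samples was measured, 6 labelled low BFI and 6 high BFI. Tools named in the submitters' processing notes are methylKit, Bismark and Trimmomatic, without versions, and the builds are ARS-UCD1.2 and bosTau9. Per the file headers, the authors deposited q-values, p-values and methylation differences per tile, the last read here as percentage points. The labels give no direction for the difference. The table has 0 columns of values per sample, so no test between the groups was run, no depth is known, and no replicate could be left out. Counts, shares and medians over tiles describe the members, and medians over genes and 1 tile per locus (tiles within 1000 bp joined) allow for overlap.

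Benjamini-Hochberg values were recomputed over all 7290 tiles. The code, tested on simulated data, ran in Python 3.11.15 with pandas 2.3.3, NumPy 2.4.6, matplotlib 3.10.9 and SciPy 1.17.1. Of 151 descriptions, 33 symbols came from NCBI gene numbers in a RefSeq table of ARS-UCD2.0 that served only for names, and 115 were given by hand and lie on the same chromosome there. The members, lists and rules were chosen with earlier results of these data known, and lists were trimmed after their members were seen. Named genes were those with a call and at least 10 points, the 12 largest called differences of each sign, the 4 largest of each sign within 1000 bp, the 5 with the most tiles, the smallest q of each sign, and every gene of lists with at most 6 genes, otherwise the 4 largest. IDs without a description were named after their values were seen. Multicopy families and unnamed IDs are uncertain. Some genes that these rules select are not reported here.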

Additional observations from a re-analysis of the deposited data

How the results depend on the processing

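Across 14 settings and 12 results, 138 values were computed, of which 95 stayed within the interval or factor used for the reported value and 43 moved. The interval was a 95% one over tiles, such as 62.4% to 71.5% for the share called. It takes overlapping tiles as independent, which they are not, so that this count is only a rough guide. No paired analysis was possible because the table holds no values per sample, and for the same reason no replicate could be left out. The 4 settings on the tile edge, chromosome starts, GLIS3 and proteoglycan 3 were chosen after seeing the data. Putting the 5 intervals back gave 73.1% called, 78.5% negative among calls, 15 tiles of at least 10 points, medians of 1.38 points over all members, 0.674 up to 1000 bp and 2.50 beyond 5000 bp, and 81.7% called at coding sequence. Adding chromosome X gave 69.8% negative among calls and a median of 0.861 points. At a q under 0.01, 50.5% were called, with 60.9% at coding sequence, 46.3% at exons, 44.1% at 5′ untranslated regions and 50% at introns. Benjamini-Hochberg values gave 56.9% over all members, 54.5% at exons and 48.5% at 5′ untranslated regions. A minimum of 5 points gave 33 tiles. With 1 tile per locus, 1 tile had at least 10 points, and the medians over all members and for 2000 to 5000 bp were both 0.507 points. Thinned tiles gave 1 tile, 0.613 points and 1.78 points for the same 3 results. Without multicopy families and unnamed IDs, 60.4% were called, with 62.9% at coding sequence and 59.2% at exons, and the medians were 0.517 points overall and 0.415, 0.292, 2.04 and 5.36 points from the nearest class to the farthest. That setting keeps both proteoglycan 3 genes, which hold 7 of its 11 tiles beyond 5000 bp. Leaving them out as well gave 58.2% called, 62.9% at coding sequence and 59.2% at exons, and medians of 0.434 points overall and 0.415, 0.292, 0.861 and 7.50 points by distance. The value of 7.50 points rested on the 3 overlapping tiles of PTGR1 and 1 tile of KIRREL3 without a call. Without the first 500 kb of each chromosome the medians were 0.657 points overall and 1.76 points for 2000 to 5000 bp. Without the GLIS3 locus the count at 10 points was 0. The nearest class had the lowest median except with 1 tile per locus and without multicopy families and unnamed IDs (with or without proteoglycan 3), where 1000 to 2000 bp was lowest. Precision cannot be given, since coverage was not analysed here.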

Other observations

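Promoter-class tiles that were left out had larger differences. In the 4 left-out intervals with such tiles, 232 tiles had a median absolute difference of 2.87 points, 96.6% were negative, 84.1% were called and 10 were called with at least 10 points. On chromosome X, of which a bull has 1 copy, 89 promoter-class tiles had a median of 2.86 points, 86.5% were negative, 84.3% were called and 1 was called with at least 10 points. The members had 0.766 points and 63.3% negative. Genes without a description had a larger median over their 140 tiles (1.82 points) than described genes over 282 tiles (0.544 points).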
